A study of Mus musculus with 6 samples.

Results

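The 10 genes Ccl2, Ccl7, Ccl8, Ccl11, Cxcl1, Cxcl2, Cxcl5, Cxcl12, Cxcl14 and Cx3cl1 encode chemokines, secreted or membrane-bound proteins that direct the movement of cells. They were read from primary mouse dermal fibroblasts on Affymetrix Mouse430_2 arrays. All probe sets were taken to which the platform annotation gives exactly 1 gene symbol, equal to 1 of the 10. There were 18 of them among 45037 probe sets, 34945 of which carried a single symbol, for 18193 genes. They were grouped by the cell each chemokine is best known to attract, with 3 probe sets for monocyte, 5 for neutrophil and 10 for other chemokines. The probe sets of these genes were taken without regard to signal, but the genes were chosen with earlier results of these data known.

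The cells were grown out of the skin of newborn B6 pups of both sexes. Pup age was 0 to 2 days by the sample labels and 0 to 3 days by the series text. The labels give passage 6, and the series text names passage 5 for the split into treated and untreated cultures. The 3 control cultures received nothing, and the 3 Et1 cultures received 100 nM synthetic Et1 (endothelin 1, a peptide hormone of blood vessel walls) for 24 hours. All cultures shared a medium with serum. By the series text the cells were divided between treated and untreated cultures, so arrays of both groups may share a starting culture. The labels call the arrays of a group biological replicates and name no animals, so p-values measure the spread between these cultures. Before scaling, the arrays had 2% trimmed means between 91.7 and 179, and all signals below are scaled to a common trimmed mean of 139. In RNA from whole cultures, fewer cells of a type and less RNA per cell cannot be told apart.

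Chemokines bind G-protein-coupled receptors on leukocytes and are held on heparan sulphate near the cells that make them. CC chemokines such as Ccl2 draw monocytes through Ccr2, while CXC chemokines with a glutamate-leucine-arginine motif, such as Cxcl1 and Cxcl5, draw neutrophils through Cxcr2. In fibroblasts the inflammatory chemokines are known targets of interleukin 1, tumour necrosis factor and NF-kappaB. Cxcl12 and Cxcl14 are made by resting stroma.

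In the RefSeq gene order (assembly GRCm38.p6), the CC members lay in a run of 6 neighbouring protein-coding genes on chromosome 11. Its order was Ccl2, Ccl7, Ccl11, Ccl12, Ccl8 and Ccl1, of which Ccl12 and Ccl1 are not among the 10 genes. Cxcl5, Ppbp, Pf4, Cxcl3, Cxcl15, Cxcl1 and Cxcl2 formed a run of 7 on chromosome 5. The RefSeq promoter table, which holds 250 bases before to 50 after a start site, matched 6 of the 10 genes, and the others were Ccl2, Ccl7, Ccl11 and Cxcl5. The promoters of Cxcl1 (chr5:90890995-90891294) and its neighbour Cxcl2 (chr5:90903649-90903948) are shown because both hold NF-kappaB letters while their signals differed in the way given below. That of Ccl8 (chr11:82114935-82115234) is shown as the matched gene of the Ccl2 run. All are on the plus strand of GRCm38.p6 and run 5′ to 3′, and capitals mark matches to GGGNNTTTC, the start of an NF-kappaB site, or to TATAAA on either strand.
Cxcl1: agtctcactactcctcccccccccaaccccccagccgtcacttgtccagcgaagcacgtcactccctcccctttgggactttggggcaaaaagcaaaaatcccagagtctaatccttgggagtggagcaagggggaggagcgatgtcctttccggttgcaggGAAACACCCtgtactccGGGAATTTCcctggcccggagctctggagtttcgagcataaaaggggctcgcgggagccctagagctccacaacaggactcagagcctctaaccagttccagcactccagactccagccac
Cxcl2: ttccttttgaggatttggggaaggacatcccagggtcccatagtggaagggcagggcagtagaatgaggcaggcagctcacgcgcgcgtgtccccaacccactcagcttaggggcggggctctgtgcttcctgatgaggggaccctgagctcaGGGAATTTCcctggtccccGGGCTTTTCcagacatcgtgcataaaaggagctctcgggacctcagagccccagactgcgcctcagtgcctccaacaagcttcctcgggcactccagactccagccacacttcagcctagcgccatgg
Ccl8: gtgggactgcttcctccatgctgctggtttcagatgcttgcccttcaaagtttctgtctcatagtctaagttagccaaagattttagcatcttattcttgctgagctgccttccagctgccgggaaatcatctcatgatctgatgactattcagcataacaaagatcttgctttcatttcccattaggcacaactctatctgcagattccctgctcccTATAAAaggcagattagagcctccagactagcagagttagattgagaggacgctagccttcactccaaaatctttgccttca
The stricter letters GGGAATTTC, 1 case of GGGNNTTTC, began at position -71 in Cxcl1 and -97 in Cxcl2, counted from the start site. They occurred on either strand in 0.259% of the 32851 promoters of this length, and GGGNNTTTC in 4.36%. Cxcl1 held a second match to GGGNNTTTC at -88 on the opposite strand, and Cxcl2 a second at -78. The other 4 matched promoters held none. The letters TATAAA were found in Ccl8 at -32 and in Cx3cl1 at -6, and in 13.6% of all promoters. The GC box GGGCGG was found in 4 of the 6 matched promoters, namely Cxcl2, Cxcl12, Cx3cl1 and Cxcl14, and in 35.7% of all. The AP-1 letters TGANTCA were in 0 of the 6 and in 7.81% of all. A match describes the letters and does not show that a factor binds there.

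Tests were limited to probe sets whose mean over the 6 arrays was at least 41.0, the median of all probe sets. Of the 18 chemokine probe sets 12 passed, for 8 of the 10 genes. The remaining 6 included the 1 probe set each of Cxcl2 and Ccl11. In the comparison of Et1 with control cultures, Ccl2, Ccl7, Cxcl5 and 1 of 3 probe sets of Cxcl1 fell, and no chemokine probe set rose. These 4 calls used limma with a Benjamini-Hochberg adjusted p under 0.05 over all 22519 tested probe sets, of which 0.249% were called lower and 0.0977% higher (0.346% in either direction). At an unadjusted p under 0.05, 6 of the 12 were lower and 0 higher, where 6.38% and 5.94% of all tested probe sets were so, and 9 of the 12 had a log2 change below 0 where 45.9% of all did. The lowest Et1 mean among the 4 was 48.4, so none passed the filter through its control arrays alone. The median log2 change was -0.50 over the 12 chemokine probe sets and 0.03 over all tested ones. Without the filter it was -0.48 over the 18 and 0.05 over all probe sets. Since the genes were chosen with earlier results of these data known, these shares and medians are a description and not a test.

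**Figure D1:**
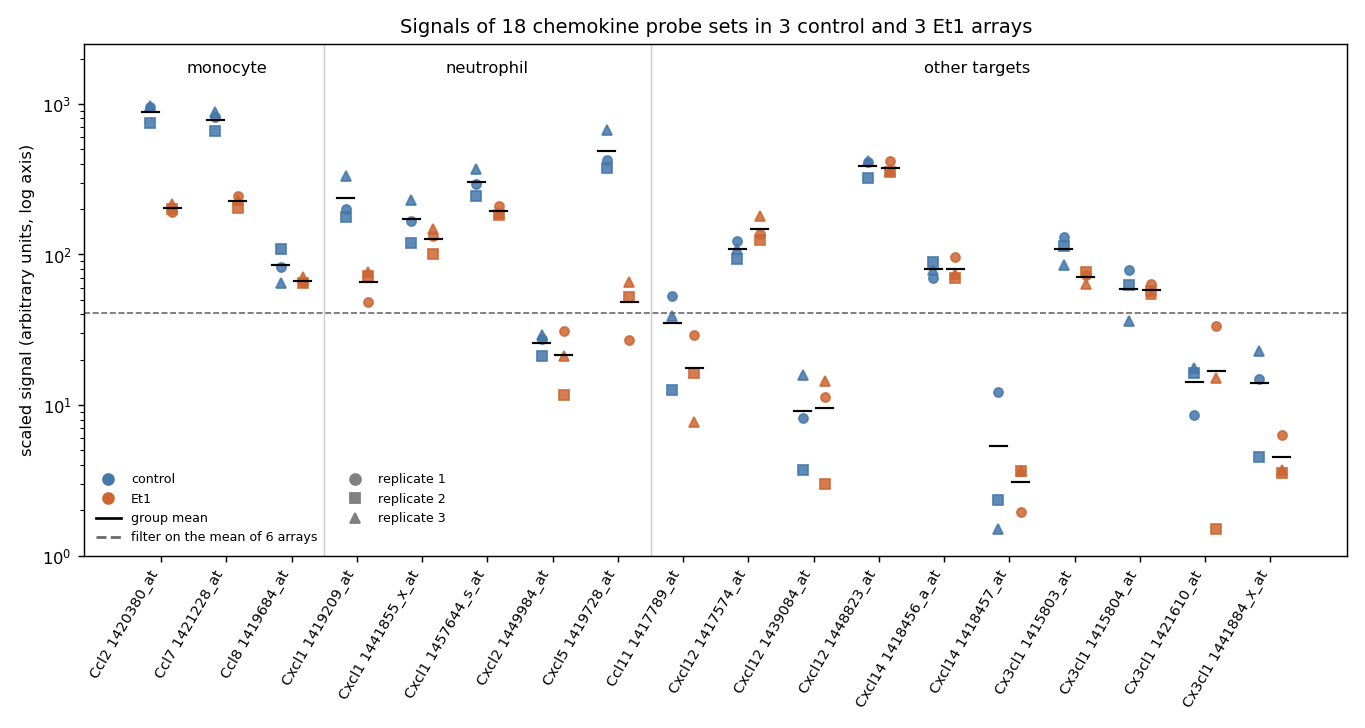
Scaled signal on a log axis of each of the 18 chemokine probe sets in 3 control (blue) and 3 Et1 (orange) arrays, with the group mean as a black bar and the filter value of 41.0 as a dashed line. The 3 Et1 points of Ccl2, Ccl7, Cxcl5 and Cxcl1 1419209_at lie below all their control points, while the 6 probe sets that did not pass the filter have overlapping groups.

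Of the monocyte chemokines, Ccl2 (probe set 1420380_at), the main ligand of Ccr2, measured 953, 742 and 970 in control replicates 1 to 3, as against 193, 200 and 215 in Et1 replicates 1 to 3. The lowest control signal was more than 3 times the highest Et1 signal. Ccl2 fell by 2.12 on the log2 scale (SE 0.16, 95% interval -2.49 to -1.75, limma adjusted p = 0.0050), a 4.36-fold decrease. The Et1 cultures were also the more alike, at 203 ± 11.6 against 888 ± 127 in control (SD, n = 3). Ccl2 held the rank of 2 by unadjusted p among the 22519 probe sets.

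Ccl7 (1421228_at), the gene next to Ccl2, also attracts monocytes and binds several CC receptors. It measured 822, 658 and 880 in control replicates 1 to 3, as against 245, 203 and 229 in the Et1 ones, again with no overlap. Ccl7 fell by 1.79 on the log2 scale (SE 0.17, 95% interval -2.18 to -1.41, limma adjusted p = 0.00914). The same control culture, replicate 2, was the lowest of its group for both genes. It was also the lowest for Cxcl5 and for every probe set of Cxcl1 and Cxcl12, though not for Ccl8. Leaving out control replicate 1 gave Ccl7 a limma adjusted p of 0.0757 at a log2 change of -1.76. The limma adjusted p was 0.0563 when Et1 replicate 1 was omitted and 0.0857 when Et1 replicate 3 was.

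Ccl8 (1419684_at), a monocyte chemokine of the same run, measured 82.1, 109 and 64.3 in the control cultures, as against 65.5, 65.0 and 70.5 with Et1. Control replicate 3 lay below every Et1 culture, so the groups overlapped. The log2 change was -0.31 (95% interval -0.86 to 0.24, limma adjusted p = 0.641). This interval reaches a 1.82-fold fall and does not reach the estimates of Ccl2 or Ccl7. The remaining chemokines of that run were dim. Ccl11 read 7.7 to 52.9, Ccl12 had means of 2.45 in control and 2.23 in Et1, and Ccl1 had means of 18.9 and 29.4, all under the filter.

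Of the neutrophil chemokines, Cxcl5 (1419728_at), a ligand of Cxcr2, showed the largest change among the 12 tested chemokine probe sets. It measured 424, 374 and 670 in the control cultures, as against 27.2, 51.8 and 66.1 in Et1 replicates 1 to 3. Every control signal was more than 5 times every Et1 signal. Cxcl5 fell by 3.39 on the log2 scale (SE 0.35, 95% interval -4.18 to -2.59, limma adjusted p = 0.0141), a 10.4-fold decrease whose 95% interval ran from 6.03 to 18.1. Its Et1 signals were near the filter, and with 50 added to every signal the log2 change was -2.44 (limma adjusted p = 0.00776). The limma adjusted p was 0.0757 without control replicate 1 and 0.0771 without control replicate 2, at log2 changes of -3.47 and -3.56.

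Cxcl1, another Cxcr2 ligand, was read by 3 probe sets that differed. Probe set 1419209_at gave 199, 176 and 334 in control and 48.3, 72.0 and 76.3 in Et1 replicates 1 to 3, with no overlap, and fell by 1.82 on the log2 scale (SE 0.28, 95% interval -2.47 to -1.17, limma adjusted p = 0.0485). Probe set 1457644_s_at gave 293, 246 and 372 in control and 209, 183 and 189 in Et1 replicates, also with no overlap, at a log2 change of -0.63 (limma adjusted p = 0.230). Probe set 1441855_x_at gave 167, 119 and 230 in control and 133, 101 and 148 in Et1 replicates, with overlap, at -0.40 (limma adjusted p = 0.586). By Affymetrix naming, probe sets ending in _s_at or _x_at hold probes that match, or nearly match, more than 1 transcript. The p of 1419209_at was close to the threshold and passed it in 4 of 14 other settings; leaving out any array except control replicate 3 gave a limma adjusted p of 0.0544 to 0.220. With the spike-in blocking described further on, an alternative added once the data had been seen, 1457644_s_at fell by 0.73 (limma adjusted p = 0.0231).

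Cxcl2 (1449984_at), the neighbour of Cxcl1 whose promoter holds the same stricter NF-kappaB letters, was dim. It read 27.3, 21.3 and 29.1 in control and 31.3, 11.7 and 21.3 in Et1 replicates 1 to 3. These signals overlapped and lay under the filter, so no test was made. Of the other genes of the chromosome 5 run, Cxcl3, also a neutrophil chemokine, had 86.3 ± 6.22 in control and 42.2 ± 7.01 in Et1 cultures (SD, n = 3), with no overlap. Its log2 change of -1.04 missed the threshold (limma adjusted p = 0.131), and was -0.57 with 50 added to each signal. Ppbp and Pf4, chemokines of platelets, stood at log2 changes of -0.13 and 0.34 (limma adjusted p = 0.919 and 0.840). Cxcl15 lay under the filter, with means of 5.89 and 27.1.

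**Figure D2:**
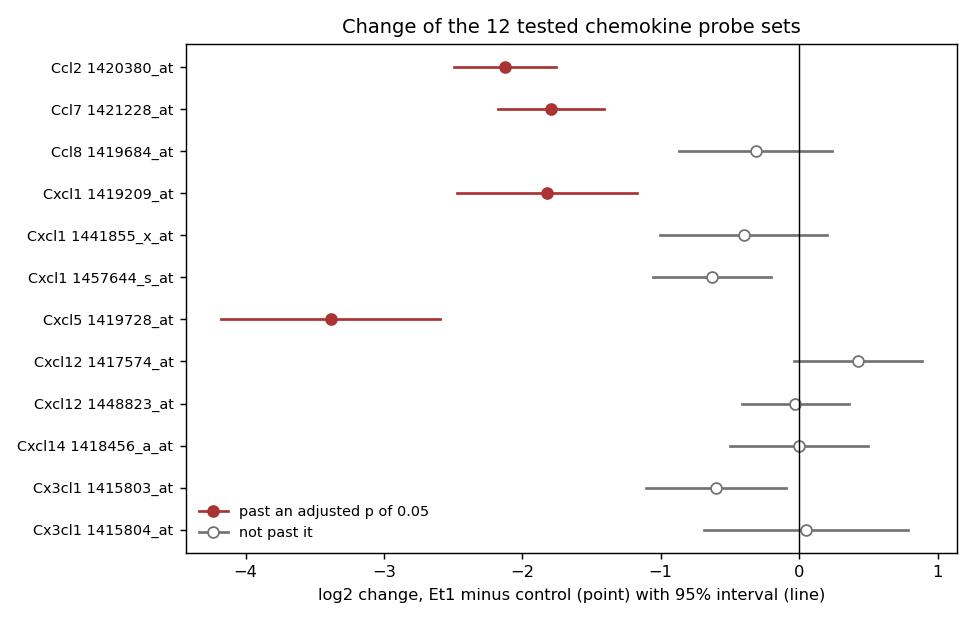
Log2 change of the 12 tested chemokine probe sets, Et1 minus control, with the 95% interval from limma as a line. Filled red points are past an adjusted p of 0.05, namely Ccl2, Ccl7, Cxcl5 and Cxcl1 1419209_at, and the intervals of 6 of the 12 include 0.

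The chemokines with other targets showed smaller differences. Cxcl12, which holds Cxcr4-bearing progenitors and lymphocytes in place, was read by 2 tested probe sets. The first, 1448823_at, gave 414, 323 and 420 in control and 420, 352 and 359 in Et1 replicates 1 to 3. The groups overlapped, with a log2 change of -0.03 (95% interval -0.41 to 0.36, limma adjusted p = 0.963), an interval that leaves out the size of the changes in Ccl2, Ccl7 and Cxcl5 but not a 1.33-fold fall. The other, 1417574_at, gave 123, 93.9 and 109 in control and 136, 125 and 180 in Et1 replicates. All 3 Et1 signals lay above all 3 control signals, as for 9.47% of all tested probe sets, and the log2 change was 0.43 (95% interval -0.03 to 0.89, limma adjusted p = 0.441). A further probe set, 1439084_at, stayed between 3.0 and 15.7.

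Cxcl14, a chemokine of epithelia and stroma, gave 70.2, 89.3 and 79.1 in control and 96.8, 69.7 and 73.7 in Et1 replicates 1 to 3 in probe set 1418456_a_at. The groups overlapped, at a log2 change of 0.0018 (95% interval -0.50 to 0.50, limma adjusted p = 0.998). The direction has no meaning at this size and turned with quantile normalization (-0.012) and with median centring (-0.050). Probe set 1418457_at stayed between 1.5 and 12.3. Cx3cl1, a membrane-anchored chemokine that is shed by proteases and binds Cx3cr1, gave 130, 113 and 84.5 in control and 73.4, 76.3 and 63.7 in Et1 replicates in probe set 1415803_at. There the groups did not overlap and the log2 change was -0.60 (95% interval -1.10 to -0.10, limma adjusted p = 0.326). In probe set 1415804_at it gave 79.1, 62.4 and 36.2 in control and 63.6, 56.9 and 54.5 in Et1 replicates, with overlap, at 0.05 (limma adjusted p = 0.969), which was -0.0043 with median centring. The remaining 2 probe sets of Cx3cl1 read 1.5 to 33.4 and 3.5 to 23.0. Ccl11 (1417789_at), the eosinophil chemokine eotaxin, gave 52.9, 12.7 and 38.8 in control and 29.1, 16.3 and 7.7 in Et1 replicates, with overlap and below the filter.

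Over the 12 tested chemokine probe sets, Et1 lay below control with no overlap in 6, namely the 4 called ones, Cxcl1 1457644_s_at and Cx3cl1 1415803_at, where 8.11% of all tested probe sets did so. It lay above with no overlap in 1. Whether the chemokines changed by unequal amounts was tested on their log2 ratio within each array, for every pair of the 4 called probe sets and every pair of tested probe sets of 1 gene, 11 pairs in all and chosen with the changes known. With 3 arrays against 3 the smallest 2-sided exact permutation p is 0.1, or 0.138 adjusted over the 11, so no pair could pass. The ratio of Ccl2 to Cxcl5 moved by 1.26 on the log2 scale and that of Ccl7 to Cxcl5 by 1.59, and that of Cxcl1 to Cxcl5 by 1.56. In each of these the groups did not overlap (exact permutation p = 0.1), with Cxcl5 falling the most. The Et1 signals of Cxcl5 were near the filter, so the size of these moves depends on the log scale used. With 50 added to every signal, the log2 change was -2.44 for Cxcl5 and -1.88 for Ccl2. It was -1.59 for Ccl7 and -1.28 for Cxcl1 1419209_at, so Cxcl5 differed less from the other genes. The ratio of Ccl2 to Ccl7 moved by -0.33 (no overlap, exact permutation p = 0.1) and that of Ccl7 to Cxcl1 1419209_at by 0.03 (overlap, exact permutation p = 1). Within Cxcl1, 1419209_at moved by -1.19 against 1457644_s_at and by -1.42 against 1441855_x_at, both with no overlap, while the latter pair moved by 0.23 with overlap (exact permutation p = 0.1, 0.1 and 0.4). The ratio of the 2 tested probe sets moved by 0.46 for Cxcl12 and by -0.65 for Cx3cl1, with no overlap (exact permutation p = 0.1 for each, 0.138 adjusted).

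The arrays differed in a technical measure, the mean log2 signal of 27 probe sets for Bacillus poly(A) control transcripts. A low set of 3 arrays, 2 of them control (replicates 1 and 2) and 1 Et1 (replicate 2), read 3.45 to 3.57. A high set of the remaining 3 read 4.75 to 5.64. Within the low set the log2 changes were -2.07 for Ccl2, -1.86 for Ccl7, -1.38 for Cxcl1 1419209_at and -2.94 for Cxcl5. Within the high set they were -2.25, -1.89, -2.46 and -3.98 for the same probe sets. Because the groups of these 4 probe sets did not overlap, any split of the arrays gives a decrease, and each set held a single array of 1 group, so these values show sizes only. The part of the spike-in difference in the results was not tested. When the low and high set entered the fit as blocks, limma called 2.47% of all tested probe sets lower and 1.39% higher, among them these 4 and Cxcl1 1457644_s_at. The difference of high minus low set was 0.59 for Cxcl1 1441855_x_at (limma adjusted p = 0.0494). For the other tested chemokine probe sets the limma adjusted p of this difference was 0.189 to 0.731. The share of all tested probe sets past the threshold for it was not counted, so the 1 value is a description only.

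**Figure D3:**
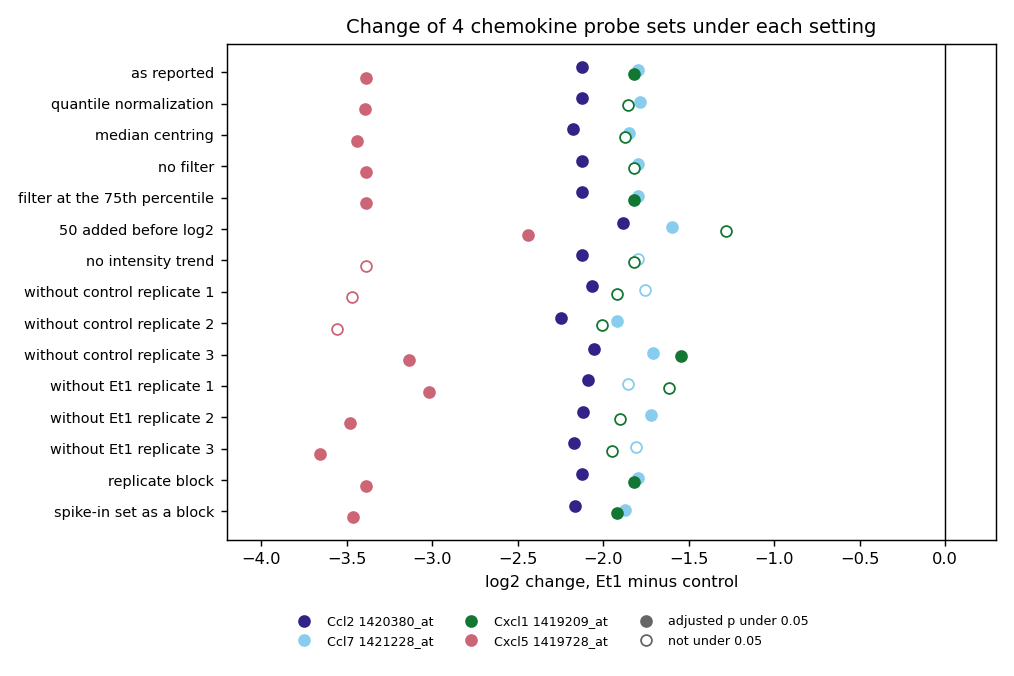
Log2 change, Et1 minus control, of Ccl2, Ccl7, Cxcl1 1419209_at and Cxcl5 as reported and under 14 other settings; filled points have a limma adjusted p under 0.05. All points lie below 0, Ccl2 is filled in each of the 14, Cxcl5 in 11, Ccl7 in 10 and Cxcl1 in 4.

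Other genes of the chemokine pathway were taken from lists, each gene by its brightest probe set. Of 10 other tested chemokines none was called by limma, with 5 higher and 5 lower means and a median log2 change of 0.01. At an unadjusted p under 0.05 there were 1 higher, Cxcl16, and 1 lower, Cxcl3, beside 5.94% and 6.38% of all tested probe sets. Cxcl16, a membrane-bound chemokine and scavenger receptor, had a log2 change of 0.62 (limma adjusted p = 0.358). Ccl4 had one of 0.25 (limma adjusted p = 0.664). Both were higher with Et1 with no overlap, as were 9.47% of all tested probe sets. Cxcl3 was lower with no overlap, as were 8.11% of all. Cxcl13, which attracts B cells, had a log2 change of -0.93 (limma adjusted p = 0.453). Of 10 tested chemokine receptors none was called by limma, 0 were below an unadjusted p of 0.05, and the median was 0.08. Ackr2, a decoy receptor that takes up inflammatory CC chemokines, had the largest change at 0.66 (limma adjusted p = 0.431). Ackr3, a decoy receptor for Cxcl12, stood at -0.07, and Cxcr2 and Cxcr4 lay below the filter, with means of 6.57 and 15.9 in control cultures.

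Among 19 tested receptors and inputs of inflammatory signalling, 1 was called lower, where 0.249% of all tested probe sets were. This was Il1r1, the signalling receptor of interleukin 1. It measured 454, 335 and 289 in the control cultures, as against 138, 141 and 120 in Et1 replicates 1 to 3, with no overlap. Il1r1 fell by 1.41 on the log2 scale (limma adjusted p = 0.0357). It passed in 7 of 14 other settings, and its limma adjusted p was 0.207 without control replicate 1, 0.173 without control replicate 2, 0.145, 0.0519 and 0.191 without Et1 replicates 1, 2 and 3. Of the 19, 15 had a log2 change below 0, where 45.9% of all tested probe sets did, with a median of -0.17. At an unadjusted p under 0.05, 4 were lower and 0 higher, beside 6.38% and 5.94% of all. Il4ra, the receptor chain for interleukins 4 and 13, Osmr, the oncostatin M receptor, and Il6st, the shared signalling chain of the interleukin 6 family, stood at -1.19, -0.59 and -0.52 (limma adjusted p = 0.185, 0.214 and 0.372). Tnfrsf1a, the main receptor of tumour necrosis factor, was at -0.16, Il1rap, the partner chain of Il1r1, at -0.30 and Myd88, the adaptor below it, at -0.13. Il1b had means of 63.1 and 52.7, and Il1a and Tnf lay below the filter.

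Of 12 tested genes of the NF-kappaB pathway none was called by limma, with a median log2 change of -0.05. At an unadjusted p under 0.05, 1 was lower and 1 higher, beside 6.38% and 5.94% of all tested probe sets. The lower was Nfkbiz, a nuclear cofactor of NF-kappaB, at -0.55 (limma adjusted p = 0.333). The higher was Ikbkg, the regulatory subunit of the IKK complex, at 0.37 (limma adjusted p = 0.393). Nfkbia and Tnfaip3, feedback inhibitors that NF-kappaB induces, stood at -0.05 and 0.21, Vcam1, an adhesion molecule, at -0.20 and Rela, a subunit, at -0.05. Of 9 other tested cytokines and mediators, 1 was called lower, where 0.249% of all tested probe sets were: Il6, an inflammatory cytokine often made with Ccl2 and Cxcl1. Its Et1 mean of 34.9 lay under the filter, so Il6 entered the test only through its control mean of 144. It measured 174, 108 and 150 in the control cultures, as against 29.9, 23.6 and 51.1 in Et1 replicates 1 to 3, with no overlap (log2 change -2.10, limma adjusted p = 0.0485, and -1.19 with 50 added to each signal). Leaving out any of the 6 arrays raised that limma adjusted p above the threshold, to 0.0556 to 0.291. Il11, Lif, Csf1 and Ptgs2 stood at 0.56, -0.17, 0.14 and -0.02, and none was called.

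Of 17 tested genes that control cytokine messages or chemokine proteins, none was called by limma, and the median log2 change was -0.19. At an unadjusted p under 0.05, 2 were higher and 2 lower, beside 5.94% and 6.38% of all tested probe sets. Sdc4, a heparan sulphate proteoglycan that binds chemokines, stood at -1.39 and Zfp36l1, which destabilises AU-rich messages, at -0.42 (limma adjusted p = 0.233 and 0.342). Tsc22d3, a glucocorticoid-induced inhibitor of inflammation, stood at 0.47 and Mmp9, a protease that cleaves chemokines, at 0.40 (limma adjusted p = 0.272 and 0.334). Zfp36, which destabilises cytokine messages, had a log2 change of -0.68 (limma adjusted p = 0.421).

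**Figure D4:**
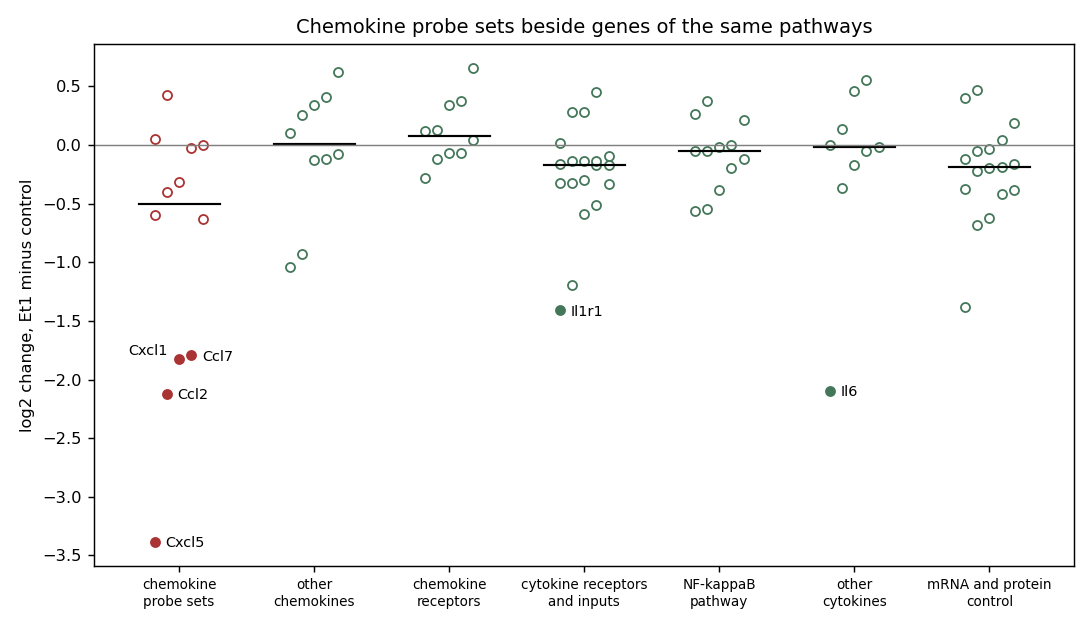
Log2 change, Et1 minus control, of the 12 tested chemokine probe sets (red) and of the tested genes of 6 lists (green, 1 probe set each), with the median of each as a black bar and filled points past a limma adjusted p of 0.05. Only Ccl2, Ccl7, Cxcl5, Cxcl1 1419209_at, Il1r1 and Il6 are filled.

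Markers of the cells that could be in such cultures were read beside the chemokines. Of 11 fibroblast markers most were high, with Vim at 6833 to 10130. Fap was lower, with means of 132 in control and 116 in Et1 cultures. Lum had means of 42.5 and 35.0 and, at 38.7 over all arrays, lay under the filter. The summed signals of the 11 were 24948 to 40703 in control and 17882 to 30742 in Et1 cultures. By limma 0 of the 10 tested was called. Of these 10, 9 had a log2 change below 0, and their median of -0.47 was near the -0.50 of the chemokine probe sets. At an unadjusted p under 0.05, 3 of the 10 were lower, beside 6.38% of all tested probe sets: Pdgfrb at -1.14, Col3a1 at -1.26 and Thy1 at -1.18 (limma adjusted p = 0.0615, 0.217 and 0.244). Of 12 macrophage markers, themselves in cells that make Ccl2, 6 passed the filter and 0 were called by limma (0 below an unadjusted p of 0.05), and their sums were 495 to 582 in control and 533 to 650 in Et1 cultures. The pan-leukocyte marker Ptprc had means of 15.3 and 26.1 and the macrophage marker C1qa of 3.93 and 3.29. Both were under the filter and neither was at 0. By mean over the 6 arrays, the highest macrophage marker was Csf1r at 155, ranging from 126 to 178. The highest keratinocyte marker was Epcam at 180, ranging from 151 to 213. In the other lists Laptm5 (leukocyte) led at 79.2, Kdr (endothelial) at 49.3 and Ngp (neutrophil) at 82.6. Cma1 (mast cell) led at 68.7, Cd8a (lymphocyte) at 109 and Sox10 (melanocyte) at 87.7. The sums of endothelial markers were 120 to 155 in control and 157 to 239 in Et1 cultures, with Pecam1 at means of 6.56 and 8.76, and those of keratinocyte markers 545 to 710 and 621 to 718. The endothelial sums did not overlap and were higher with Et1, with 155 as the highest control and 157 as the lowest Et1 sum. Of the 7 endothelial markers 5 lay under the filter, and limma called 0 of the 2 tested. The sums of neutrophil markers were 172 to 244 in control and 220 to 260 in Et1 cultures. Those of mast cell markers were 217 to 229 and 176 to 210 (no overlap), with 5 of the 7 under the filter. The sums of lymphocyte markers were 171 to 270 and 204 to 293, and of melanocyte markers 288 to 352 and 340 to 356. The summed signals of 5 adipocyte markers were 374 to 488 in control and 166 to 207 in Et1 cultures, with no overlap and most of the sum from Fabp4. Of the 2 that were tested 1 was called lower, where 0.249% of all tested probe sets were. Fabp4 fell by 1.44 in the brightest of its 4 probe sets (limma adjusted p = 0.0258), and the others were not read here. Its limma adjusted p was 0.172 and 0.123 without control replicates 1 and 2, and 0.121 and 0.159 without Et1 replicates 1 and 3. Pparg stood at -1.06 (limma adjusted p = 0.354), and Adipoq and Lep lay below the filter, at means of 14.6 and 3.52 in control and of 18.8 and 3.35 in Et1 cultures. The part of these markers in the chemokine results was not tested.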

How the data were processed

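RNA of 6 fibroblast cultures was labelled with biotin per the labels' protocols and hybridised to Mouse430_2 arrays. The values deposited by the authors are intensity signals on a linear scale, 1 per probe set. The submitters' processing notes name MAS5. Its version is not given in the sources used here, nor is its scaling, and detection calls were not used. The deposited experiment files, read only for settings, held 1 distinct text over the 6 arrays apart from sample type, project and operator. Those fields were left out of the comparison, so it cannot show whether the arrays came from different batches.

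Each array was scaled to a common 2% trimmed mean, the 4 zero values were raised to the smallest positive signal on the same array, and signals were put on a log2 scale without a pseudocount. The 64 Affymetrix controls were left out, and 22519 probe sets with a mean signal of at least 41.0 were tested with limma 3.58.1 in R 4.3.3 (lmFit, eBayes with an intensity trend, no block) and Benjamini-Hochberg adjustment at 0.05. The fit was also run on simulated data with independent noise and no spike-in sets. That run cannot show how the fit handles the difference between the spike-in sets. Other settings changed the scaling, filter, added 50, trend, arrays or block.

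Of 45037 probe sets 34945 had 1 symbol, 932 several and 9160 none; 34741 were found by gene identifier in RefSeq (GRCm38.p6), with 0 changed. Promoters are RefSeq's.

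Members and lists were chosen with earlier results of these data known. The text names every chemokine probe set, the called genes of each list and up to 4 more by smallest p; others, such as receptors, ligands, feedback genes and chemokine neighbours, were named for their role after their values were seen. Precision is limited by having 3 arrays in each group.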

Additional observations from a re-analysis of the deposited data

How the results depend on the processing

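The 12 tested chemokine probe sets gave 163 values over 14 other settings, of which 133 kept direction and side of the threshold, 17 lost a call, 1 gained one and 12 turned direction. The number of chemokine probe sets called by limma, 4 as reported, was 1 without the intensity trend and 1 to 4 with an array left out. The total over all probe sets, 78 as reported, was 44 with median centring, 40 with no filter, 7 without the trend, 567 with the replicate block, 868 with blocks for the spike-in sets (added after seeing the data) and 4 to 229 with an array left out; the cause was not tested. Of these calls 71.8% were lower, and 84.1% with median centring. Ccl7 and Cxcl5 missed the threshold without the trend (limma adjusted p = 0.0522 and 0.0540). Values whose direction turned had main changes of 0.05 or less in size: Cxcl14 1418456_a_at at -0.012 with quantile normalization, -0.050 with median centring and -0.044 with the spike-in block, and -0.14 to 0.094 with an array left out; Cx3cl1 1415804_at at -0.0043 with median centring and -0.27 to 0.29 with an array left out; and Cxcl12 1448823_at at -0.15 to 0.040 with an array left out.

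Control and Et1 arrays with the same replicate number were compared by their deviations from the group mean over 22519 probe sets. These correlated at -0.12, 0.44 and 0.45 for numbers 1, 2 and 3, and control replicate 1 correlated best with Et1 replicate 2. Numbers 2 and 3 each lay within 1 spike-in set, while control replicate 1 was in the low set and Et1 replicate 1 in the high set. The correlations therefore cannot show whether a number marks a shared culture. The series text says that cells were split into a treated and an untreated culture. The labels do not say whether arrays with the same number came from the same split, so the numbers were not taken as pairs. With the replicate block limma called 1.76% of all tested probe sets lower and 0.755% higher, with adjusted p-values of 0.00181 for Ccl2, 0.00261 for Ccl7, 0.00995 for Cxcl1 1419209_at and 0.00181 for Cxcl5, and called no other chemokine probe set.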

Other observations

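The genes whose signals over the 6 arrays were most like those of the 4 called chemokine probe sets were found by Pearson correlation of log2 signals, given here as a description because the arrays fall into 2 groups of 3 and any gene with a tight group difference ranks high. Ccl7 was among the 5 genes most like Ccl2 (r = 0.994), and Ccl2 was the gene most like Ccl7. Prc1, which bundles spindle microtubules, and Usp6nl stood in both lists. Cxcl5 was among the 5 genes most like Cxcl1 1419209_at (r = 0.989), which Cd47, the surface signal against engulfment, led (r = 0.999). Cox6c, a subunit of cytochrome c oxidase, and Ppp1r12b stood in the lists of both Cxcl1 and Cxcl5. The log2 changes of these other genes ran from -0.24 for Ppp1r12b to -0.98 for Prc1 among those named here, smaller than those of the chemokines they followed.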
